A study of Homo sapiens with 4 samples.

Results

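DCBLD2, its paralog DCBLD1, the neuropilins NRP1 and NRP2, and ST3GAL6, the gene that overlaps DCBLD2 on the opposite strand, were taken by gene symbol from a table of RNA sequencing counts. They are 5 of the 57905 genes in the table, and each symbol stood on 1 entry. A549 is a human lung adenocarcinoma cell line. It was sequenced in 4 libraries, 1 per condition, named sc (a scramble control), shDCBLD2 (a short hairpin RNA against DCBLD2), vector (the empty vector) and DCBLD2 overexpression. The labels name no drug treatment. By the study's methods, cells were infected with lentivirus and kept under selection, and the overexpression vector held the complete coding sequence of DCBLD2 behind an EF1 promoter. Which hairpin the shDCBLD2 library carries, and whether the lines were pools or clones, is not given in the sources used here.

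DCBLD2 and DCBLD1 are transmembrane proteins whose outer part joins a CUB, an LCCL and a discoidin domain, and whose inner part holds tyrosines that Src and Abl family kinases phosphorylate and that CRK adaptors then bind. Neuropilins carry CUB and discoidin domains too. They have no kinase domain, and act as co-receptors that bind secreted class 3 semaphorins together with plexins, and vascular endothelial growth factors (VEGFs) together with VEGF receptors. ST3GAL6 makes an enzyme of the Golgi that adds sialic acid to galactose at the ends of sugar chains.

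Total counts lay between 16601633 and 21537283 per library. Levels are given as CPM (counts relative to the library's total, scaled with TMM factors) or, where genes are compared with each other, as the deposited FPKM, which divides by exonic gene size. Each interval is an exact 95% interval that covers counting error only. With 1 library per condition there is no replicate check, so no p-value is given and a difference beyond its interval is a difference between libraries. A mean of at least 1 CPM was met by 13966 genes, the 5 genes described here among them. The last library went against its label, with less DCBLD2 than the empty vector, and is called the overexpression-labelled library throughout. ST3GAL6 met the filter only through that library and so had to be higher there. All 5 epithelial markers examined (EPCAM, KRT8, KRT18, KRT19 and CDH1) were above 3 counts in every library, with a summed level between 7635 and 14700 CPM. Of 5 endothelial markers, 4 were in the table and 0 of them exceeded 3 counts in any library. Of 5 blood markers only CD68 exceeded 3 counts, with 5 to 13 per library, and PTPRC was at 0 throughout.

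The sequences before the start sites are shown because DCBLD2 stands at the centre of the study and its upstream window differs in its motifs from those of its relatives. The 250 bases before the RefSeq start (GRCh38.p14) are printed 5′ to 3′ on each gene's own strand, with CCAAT or its reverse complement ATTGG in capitals, a motif picked after the sequences were seen. The windows are chr3:98901696-98901945 (minus strand) for DCBLD2, chr6:117482424-117482673 (plus strand) for DCBLD1 and chr2:205682251-205682500 (plus strand) for NRP2.
DCBLD2: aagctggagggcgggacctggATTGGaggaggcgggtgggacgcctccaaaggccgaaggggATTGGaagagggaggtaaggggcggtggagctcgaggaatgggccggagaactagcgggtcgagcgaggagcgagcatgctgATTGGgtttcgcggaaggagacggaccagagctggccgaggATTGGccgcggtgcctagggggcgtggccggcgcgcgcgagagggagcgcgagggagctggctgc
DCBLD1: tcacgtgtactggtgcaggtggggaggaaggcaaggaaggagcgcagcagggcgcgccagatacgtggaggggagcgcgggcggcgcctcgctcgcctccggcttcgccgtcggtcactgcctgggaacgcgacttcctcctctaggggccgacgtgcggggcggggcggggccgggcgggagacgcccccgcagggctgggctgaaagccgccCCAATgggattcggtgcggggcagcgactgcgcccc
NRP2: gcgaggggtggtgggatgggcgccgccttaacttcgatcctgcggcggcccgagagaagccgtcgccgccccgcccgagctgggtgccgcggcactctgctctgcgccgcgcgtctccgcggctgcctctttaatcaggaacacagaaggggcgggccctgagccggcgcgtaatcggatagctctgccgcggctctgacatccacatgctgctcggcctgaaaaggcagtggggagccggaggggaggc

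The DCBLD2 window held CCAAT 4 times, counting both strands, the DCBLD1 window once and the NRP2 window not at all. Among 35116 RefSeq promoter windows of that length, 32.0% held at least 1 match and 0.874% held at least 4. All 3 windows were rich in CG dinucleotides, with 25 in DCBLD2, 31 in DCBLD1 and 29 in NRP2 against a median of 11. ST3GAL6 has 4 RefSeq starts, whose windows held 6, 30, 22 and 0 CG dinucleotides, and NRP1 was not in the promoter table. The element TGANTCA, bound by AP-1 factors and present in 6.57% of windows, was in none of the 7 windows of these genes. These are matches of letters in a short window, and they say nothing of binding. Sequence further than 250 bases from a start was not searched. The paper reports, from ChIP and reporter assays, an AP-1 site in the DCBLD2 promoter at a position further upstream than that. This search could not have found it and says nothing of that site.

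DCBLD2 (ENSG00000057019) lies on chromosome 3 from 98514785 to 98620533 on the minus strand, in the coordinates of the deposited table, whose build its files do not name. It was counted 9859 times in sc, 4259 times in shDCBLD2, 7970 times for the empty vector and 4000 times in the overexpression-labelled library. Scaled, these are 504 (494 to 514), 197 (192 to 203), 434 (425 to 444) and 242 (235 to 250) CPM. Both control libraries were high, the library with the hairpin was lowest, and the overexpression-labelled library was closer to the hairpin library than to its own control. No 2 of the 4 intervals overlapped.

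In shDCBLD2, DCBLD2 stood at 39.2% of sc (37.8 to 40.6), a log2 ratio of -1.35 (-1.40 to -1.30). It was the only 1 of the 5 genes at least 2-fold lower, in a comparison where 5.62% of tested genes reached that and 1.16% were past 2-fold upward. In the overexpression-labelled library it stood at 55.8% of the empty vector (53.7 to 58.0), a log2 ratio of -0.84 (-0.90 to -0.79) that was below 2-fold. With sc as the control instead, it was -1.06 (-1.11 to -1.003), past 2-fold. The controls themselves differed, with the empty vector at 86.2% of sc (83.6 to 88.7). Gene counts do not separate transcripts of the vector from those of the gene itself, and only 21.6% of the exonic size of DCBLD2 codes for protein in GENCODE 29. In bulk RNA, fewer cells that express a gene and less of its RNA per cell cannot be told apart.

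**Figure D1:**
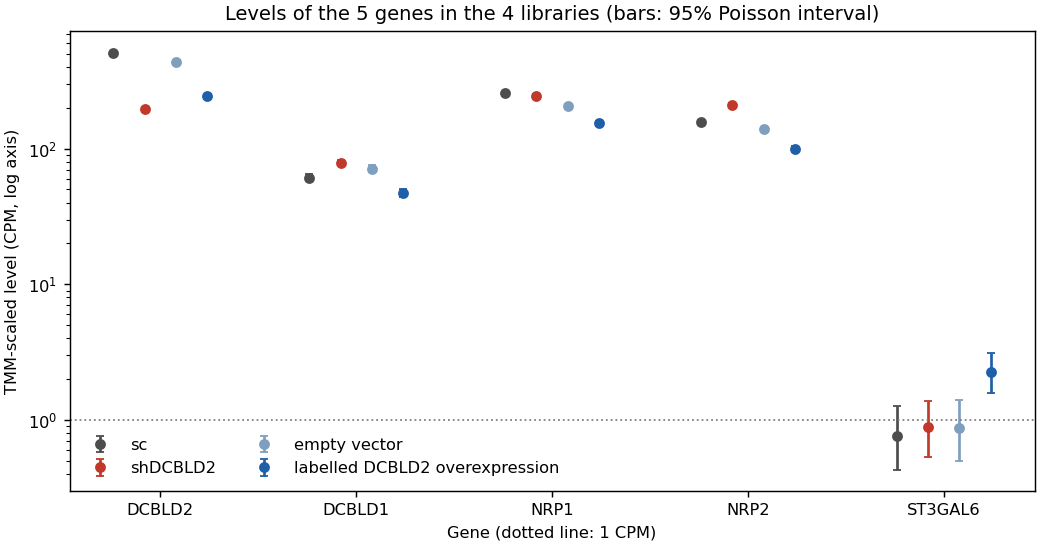
Level of each of the 5 genes in the 4 libraries, in TMM-scaled CPM on a log axis, with bars for the exact 95% Poisson interval of the count. DCBLD2 ran from 197 CPM in shDCBLD2 to 504 CPM in sc, and ST3GAL6 stayed below 1 CPM except in the overexpression-labelled library, at 2.24 CPM.

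DCBLD1 (ENSG00000164465, chromosome 6 from 117774980 to 117891021, plus strand), the nearest relative of DCBLD2, was counted 1191 times in sc, 1700 times in shDCBLD2, 1306 times for the empty vector and 775 times in the overexpression-labelled library. The levels were 60.9 (57.5 to 64.4), 78.8 (75.1 to 82.7), 71.2 (67.3 to 75.1) and 47.0 (43.7 to 50.4) CPM. It was thus highest where DCBLD2 was lowest, but lowest in the other library with little DCBLD2, and the intervals of shDCBLD2 and the empty vector met at 75.1 CPM. Its log2 ratio was 0.37 (0.27 to 0.48) in shDCBLD2 against sc and -0.60 (-0.73 to -0.47) in the overexpression-labelled library against the empty vector. Between the controls it was 0.22 (0.11 to 0.34), so that against the empty vector the shDCBLD2 ratio was 0.15.

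NRP1 (ENSG00000099250, chromosome 10 from 33466420 to 33625190, minus strand), the neuropilin best known as a receptor for SEMA3A and VEGFA, was counted 5015 times in sc, 5275 times in shDCBLD2, 3760 times for the empty vector and 2535 times in the overexpression-labelled library. These are 256 (249 to 263), 245 (238 to 251), 205 (198 to 211) and 154 (148 to 160) CPM, so sc and shDCBLD2 overlapped and the other libraries were lower. The log2 ratio of shDCBLD2 to sc was -0.07 (-0.12 to -0.01), and with the empty vector as the control its sign turned, to 0.26. The library labelled DCBLD2 overexpression held 75% of the empty vector's level (71.3 to 78.9), and the empty vector 79.9% of that of sc (76.6 to 83.4).

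NRP2 (ENSG00000118257, chromosome 2 from 206546714 to 206662857, plus strand), known as a receptor for SEMA3F and VEGFC, was counted 3089 times in sc, 4546 times in shDCBLD2, 2553 times for the empty vector and 1631 times in the overexpression-labelled library. The levels were 158 (152 to 164), 211 (205 to 217), 139 (134 to 145) and 98.8 (94.1 to 104) CPM, and no 2 of these intervals overlapped. NRP2 was highest in shDCBLD2 with either control, with a log2 ratio of 0.42 (0.35 to 0.48) to sc and 0.60 to the empty vector. Its log2 ratio was -0.49 (-0.58 to -0.40) in the overexpression-labelled library.

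ST3GAL6 (ENSG00000064225, chromosome 3 from 98451080 to 98540045, plus strand) was counted 15 times in sc, 19 times in shDCBLD2, 16 times for the empty vector and 37 times in the overexpression-labelled library. The first 3 libraries lay between 0.767 and 0.881 CPM with intervals that overlapped widely, and the last was at 2.24 CPM (1.58 to 3.09), above the upper ends of theirs. Its ratio to the empty vector was 2.40-fold (1.40 to 4.95). It was the only 1 of the 5 genes at least 2-fold higher there, where 6.42% of tested genes reached that and 5.35% were past 2-fold downward. ST3GAL6 met the filter only through that library, so its being higher there was fixed by the filter. In shDCBLD2 its log2 ratio was 0.18 (-0.85 to 1.28), so a change of 2-fold upward was within counting error.

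**Figure D2:**
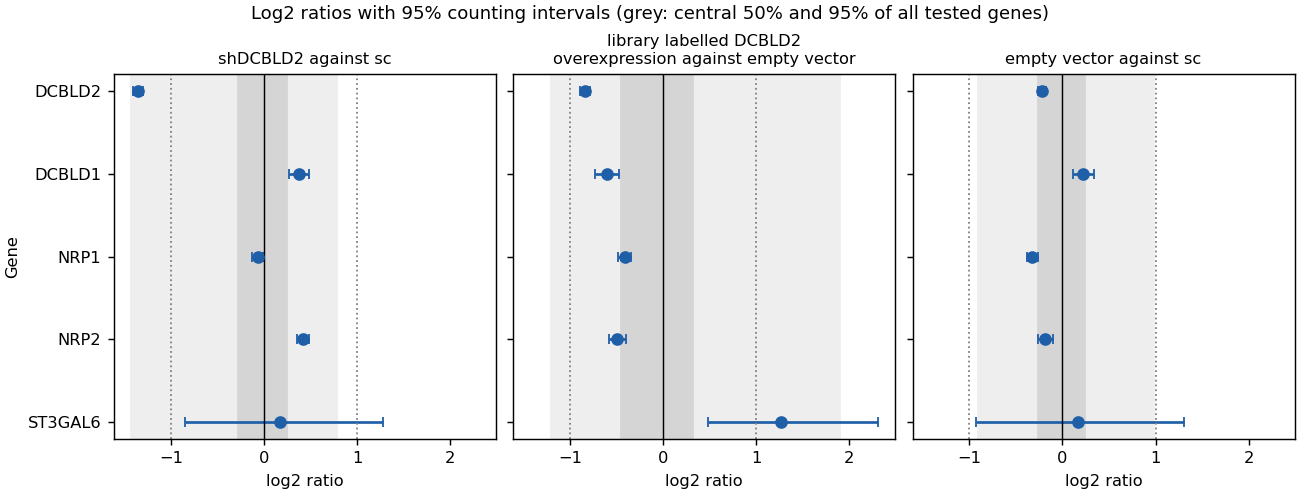
Log2 ratio of each of the 5 genes in the 3 comparisons, with bars for the 95% counting interval, grey bands for the spread of all tested genes and dotted lines at 2-fold. DCBLD2 lies below 0 in all 3, at -1.35, -0.84 and -0.21, DCBLD1 and NRP2 lie above 0 in shDCBLD2 against sc, and NRP1 at -0.07 turns above 0 there when the empty vector is the control.

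Between the controls, 0 of the 5 genes were past 2-fold, a change shown upward by 2.22% and downward by 1.89% of tested genes. The intervals of DCBLD2, DCBLD1, NRP1 and NRP2 excluded no change in each of the 3 comparisons, but so did those of 57.0% of tested genes in shDCBLD2 against sc, 67.9% in the overexpression-labelled library against the empty vector, and 54.5% between the controls. With DESeq2 size factors, NRP1 in shDCBLD2 against sc was at -0.04 (-0.10 to 0.01), and its interval then held no change. The sc library serves in the first and the last of these comparisons, and the empty vector library in the last 2. The median log2 ratio of all tested genes was 0.01, -0.04 and -0.01. Upper-quartile scaling moved the middle one by 0.12, and turned its 897 higher and 747 lower genes, 54.6% of them higher, into 1087 and 483, 69.2% higher. Under it DCBLD2, DCBLD1, NRP1, NRP2 and ST3GAL6 had log2 ratios of -0.72, -0.48, -0.29, -0.37 and 1.38, with the same signs. Relative to all tested genes, DCBLD2 stood at percentile 2.82 of the log2 ratios in shDCBLD2 and at percentile 9.27 in the overexpression-labelled library. DCBLD1, NRP1 and NRP2 stood between percentiles 18.1 and 27.4 in the latter.

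Per length, DCBLD2 was the most abundant of the 5 genes in 3 libraries. Its FPKM was 45.8 in sc, 17.5 in shDCBLD2, 37.8 for the empty vector and 21.4 in the overexpression-labelled library. NRP1 had FPKM of 22.8, 21.3, 17.4 and 13.3 in the same order, NRP2 of 14.2, 18.6, 12 and 8.63, and DCBLD1 of 9.14, 11.6, 10.2 and 6.85. ST3GAL6 did not exceed 0.35 FPKM. In shDCBLD2 the order turned. NRP1 and NRP2 were both above DCBLD2, whose ratio per length was 0.825 to NRP1 (0.792 to 0.859) and 0.946 to NRP2 (0.907 to 0.986). The order against NRP2 rests on the deposited exonic size of 11380 bases. With the 13896 bases of GENCODE 29, an alternative chosen after the values were seen, the ratio turned to 1.16 (1.11 to 1.20), while that to NRP1 was still 0.825. In the other 3 libraries DCBLD2 was 1.61 to 2.17 times NRP1 and 2.48 to 3.22 times NRP2.

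The ratio of DCBLD2 to DCBLD1 per length was 5.01 in sc (4.71 to 5.32), 1.52 in shDCBLD2 (1.43 to 1.60), 3.69 with the empty vector (3.48 to 3.92) and 3.12 in the overexpression-labelled library (2.89 to 3.38). The paralogs thus moved closest together in shDCBLD2, where DCBLD2 was lower and DCBLD1 higher than in sc. Of the summed FPKM of the 5 genes, DCBLD2 held 49.7% in sc, 25.4% in shDCBLD2, 48.7% for the empty vector and 42.4% in the overexpression-labelled library. The neuropilins' own ratio, NRP1 to NRP2, was 1.60, 1.15, 1.46 and 1.54, lowest in shDCBLD2. The ratio of DCBLD1 to NRP2 differed little within each pair of a line and its control, at 0.643 in sc and 0.624 in shDCBLD2, and at 0.854 for the empty vector and 0.793 in the overexpression-labelled library, with intervals that overlapped within pairs and not between them.

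DCBLD2 and ST3GAL6 converge, and their 3′ ends overlap by 25261 bases in the deposited coordinates, 23.9% of the span of DCBLD2 and 28.4% of that of ST3GAL6. In GENCODE 29 their exons share 235 bases, 2.08% of the exonic size of DCBLD2 and 3.74% of that of ST3GAL6. Whether the counting used strand is not given in the sources used here, so reads from those bases cannot be assigned to 1 gene. The library with 9859 counts of DCBLD2 had 15 of ST3GAL6, and the library with 4000 had 37. ST3GAL6 met the filter only through the latter, the overexpression-labelled library, and so had to be higher there. Whether shared reads add to the counts of either gene was not tested. DCBLD2 was 367 times ST3GAL6 per length in sc (222 to 655), and 60.3 times in the overexpression-labelled library (43.7 to 85.8).

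The other genes overlap neighbours too. The whole deposited span of DCBLD1 lies inside that of GOPC, a Golgi scaffold gene on the opposite strand, and their exons share 117 bases. GOPC was counted 727 times in sc, 928 times in shDCBLD2, 532 times for the empty vector and 290 times in the overexpression-labelled library, with log2 ratios of 0.21, -0.72 and -0.36 in the order of the comparisons above, a lower value between the controls where DCBLD1 was higher. NRP2 holds AC007362.1 within it on the same strand, with 202, 431, 297 and 162 counts. Added to NRP2, a choice made after these values were seen, it moved the log2 ratios of NRP2 to 0.46, -0.52 and -0.12, with the same signs. Between the transcripts of DCBLD2 and DCBLD1 the longest identical stretch was 23 bases, and between those of NRP1 and NRP2 20 bases. Stretches of at least 50 bases, on either strand, were shared with transcripts of 76 other genes for DCBLD2 and 43 for DCBLD1. They were shared with 1 for NRP1, 19 for NRP2 and 7 for ST3GAL6. How reads from such stretches were counted was not tested.

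Of 53 other genes within 1 Mb of DCBLD2, 35 had no count in any library and 9 were past the filter. In shDCBLD2 0 of the 9 were past 2-fold, where 1.16% of tested genes were past it upward and 5.62% downward, so that 0 of 9 is near the background. Their median log2 ratio was 0.06. LINC00973, a non-coding gene whose start lies 79.4 kb from that of DCBLD2, had a log2 ratio of 0.05 (-0.28 to 0.39), and CPOX, an enzyme of haem synthesis, -0.22 (-0.37 to -0.08). CMSS1 at 0.79 (0.62 to 0.96) and MINA, a histidyl hydroxylase, at 0.33 (0.15 to 0.52) were higher. The lowest of the 9, an entry of CRYBG3, was at -0.68, above the -1.35 of DCBLD2.

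In the overexpression-labelled library, the median of the 9 was -0.54 against -0.04 for all tested genes. ST3GAL6 was past 2-fold upward, and 1 of 2 entries of CRYBG3 (ENSG00000233280) downward, with a log2 ratio of -1.02 on 29 and 12 counts. Of all tested genes 6.42% were past 2-fold upward and 5.35% downward, so 1 of 9 each way is near the background. ST3GAL6 met the filter only through this library and so had to be higher there, and it is kept in the median. LINC00973 stood at -0.92 (-1.44 to -0.45), CLDND1 at -0.54, CMSS1 at -0.59 (-0.80 to -0.39), MINA at -0.45, the other CRYBG3 entry at -0.73 and ARL6, a small GTPase of cilia, at -0.25. CPOX, at 0.17 (0.03 to 0.32), was the only other gene above 0. Between the controls the median was -0.25 and 0 genes were past 2-fold, against 2.22% of tested genes upward and 1.89% downward.

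**Figure D3:**
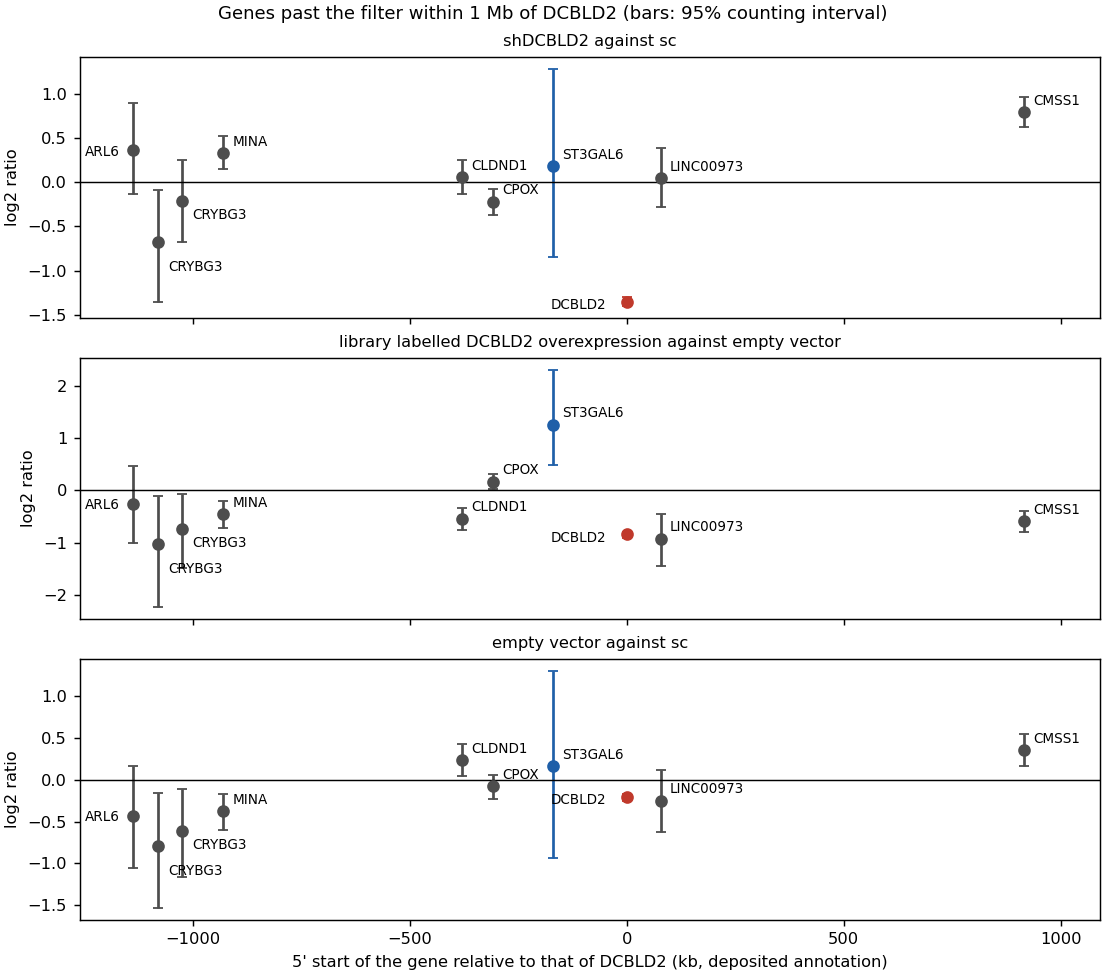
Log2 ratios of DCBLD2 and the 9 other genes past the filter within 1 Mb, against the distance between gene starts in kb, with 95% counting intervals and 1 panel per comparison. DCBLD2 stands apart at -1.35 in shDCBLD2 against sc. ST3GAL6, which met the filter only through the overexpression-labelled library and so had to be higher there, stands above its neighbours in it.

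Among the ligands of the neuropilins, 10 of 12 genes were past the filter. In shDCBLD2, 2 were past 2-fold downward and 0 upward, against 5.62% and 1.16% of tested genes, with a median log2 ratio of -0.47 against 0.01. In the overexpression-labelled library 3 were higher and 1 lower, against 6.42% and 5.35% of tested genes, with a median of 0.49 against -0.04. One of these, SEMA3G, met the filter only through that library and so had to be higher. Without it, a choice made after the values were seen, 2 of 9 were higher and the median was 0.17. SEMA3B, a secreted semaphorin, was counted 723 times in sc, 233 times in shDCBLD2, 514 times for the empty vector and 1613 times in the overexpression-labelled library. Its log2 ratios were -1.76 (-1.99 to -1.56) and 1.80 (1.66 to 1.95), opposite in sign in the 2 comparisons in which DCBLD2 was lower each time. SEMA3E, which signals through PLXND1, was lower in both, at -1.13 (-1.81 to -0.58) and -1.30 (-1.96 to -0.75).

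SEMA3G with 9 and 67 counts and PGF, a growth factor of the VEGF family, with 42 and 154 were the other ligands past 2-fold against the empty vector, at log2 ratios of 2.81 (2.04 to 4.24) and 1.98 (1.53 to 2.56). Per length, VEGFB was the most abundant ligand in every library, with FPKM of 27.1 in sc, 23.2 in shDCBLD2, 29.1 for the empty vector and 33.2 in the overexpression-labelled library. SEMA3C had log2 ratios of 0.12 and -0.74. VEGFA was higher in both comparisons, at 0.56 (0.44 to 0.69) and 0.80 (0.64 to 0.97), and lower in the empty vector than in sc, at -0.62. Between the controls 0 ligands were past 2-fold, as were 2.22% of tested genes upward and 1.89% downward.

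Of the 9 genes for neuropilin co-receptors and the adaptor GIPC1, which binds the neuropilin tail, 6 were past the filter. Their median log2 ratio was -0.36 in shDCBLD2, with 1 past 2-fold downward, as were 5.62% of tested genes. In the overexpression-labelled library it was 1.06, with 3 past 2-fold upward, as were 6.42% of tested genes. All 6 intervals there lay above no change, while the neuropilins themselves were lower. Of tested genes 67.9% had an interval that excluded no change in either direction, and the share above it alone was not counted. PLXNA2, a semaphorin receptor, was counted 130 times in sc, 41 times in shDCBLD2, 44 times for the empty vector and 247 times in the overexpression-labelled library. It was low in shDCBLD2 and the empty vector alike, with log2 ratios of -1.75 (-2.35 to -1.29) and -1.43 (-2.0 to -0.97) to the sc library that both share, and 2.59 (2.17 to 3.14) in the remaining comparison.

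PLXNA3 at 1.20 (0.97 to 1.45) and FLT4, the receptor for VEGFC, at 1.38 (1.16 to 1.61) were the other co-receptors past 2-fold in the overexpression-labelled library. GIPC1 was the most abundant of the group per length, with FPKM of 41.0 in sc, 44.1 in shDCBLD2, 53.5 for the empty vector and 63.2 in the overexpression-labelled library. PLXND1 had FPKM of 14.4, 8.11, 12.6 and 24.1. KDR, the main VEGF receptor of endothelium, had 0 counts in every library, and FLT1 had 0 in 3 of them and 21 in the overexpression-labelled library, both named after their values were seen. The summed epithelial markers moved in the same direction as PLXND1 and SEMA3B, with 13500 CPM in sc, 7635 in shDCBLD2, 9566 for the empty vector and 14700 in the overexpression-labelled library. KRT8 and KRT18 made up most of that sum, at 8210 and 5170 CPM in sc. The summed level of 6 fibroblast markers was 34.7, 55.1, 36.3 and 72.2 CPM, with 4, 3, 3 and 5 of them above 3 counts. COL1A1 made up most of it, at 32.7, 54.0, 35.5 and 63.1 CPM. COL1A2 had 17, 1, 0 and 67 counts and COL3A1 had 9, 18, 6 and 68, both highest in the overexpression-labelled library, while DCN and LUM were at 0 in the other 3. PDGFRB went another way, with 13, 4, 8 and 10 counts, highest in sc. The part of these markers in these results was not tested.

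A list of 8 genes held kinases and adaptors that act on or bind the phosphorylated tail of DCBLD proteins, with RAPGEF1 and DOCK1 besides. All 8 were past the filter. In shDCBLD2 their median was -0.03 and 0 were past 2-fold, against 1.16% of tested genes upward and 5.62% downward. Thus 0 of 8 is near the background. SRC was the most abundant, with FPKM of 107 in sc, 64.9 in shDCBLD2, 86.5 for the empty vector and 121 in the overexpression-labelled library. FYN, another Src family kinase, was counted 31, 29, 63 and 226 times in that order, with log2 ratios of 1.96 (1.59 to 2.42) to the empty vector and 1.07 (0.47 to 1.78) between the controls, the only 1 of the 8 past 2-fold in either. Of all tested genes 6.42% and 2.22% were past 2-fold upward in these comparisons, in that order. The adaptors that bind the phosphorylated tail differed little. CRKL had log2 ratios of 0.27 and 0.12, and CRK of -0.04 and -0.31, in shDCBLD2 and in the overexpression-labelled library.

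**Figure D4:**
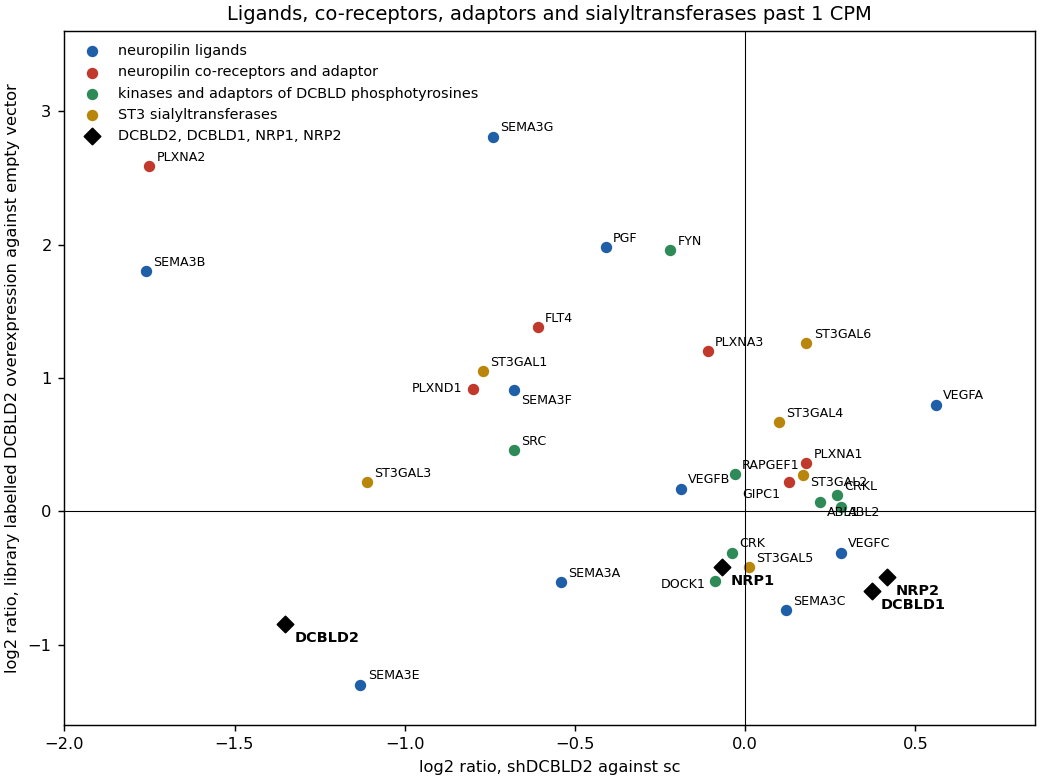
Log2 ratio in the overexpression-labelled library against the empty vector (vertical) and in shDCBLD2 against sc (horizontal), for genes past the filter in 4 lists, with DCBLD2, DCBLD1, NRP1 and NRP2 as black diamonds. The 5 co-receptors and GIPC1 lie above 0 on the vertical axis and the 4 black diamonds below it, where NRP1 at -0.07 on the horizontal axis turns positive with the empty vector as control.

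ST3GAL6 was the least abundant of the 6 ST3 sialyltransferases per length in every library. ST3GAL5, which makes the ganglioside GM3, was the most abundant in sc, with FPKM of 13.1, 12.9, 13.7 and 10.4 in the library order used above. In shDCBLD2 the median of the 6 was 0.05 and ST3GAL3, at -1.11 (-1.5 to -0.76), was the only 1 past 2-fold. Downward, 5.62% of tested genes were past 2-fold there. In the overexpression-labelled library the median was 0.47, and ST3GAL1, at 1.05 (0.86 to 1.25), was past 2-fold upward beside ST3GAL6. Upward, 6.42% of tested genes were past 2-fold there. Without ST3GAL6, which had to be higher there, the median was 0.27.

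Genes that share single domains with the receptors were mostly scarce. Of 15 other discoidin domain genes 6 were past the filter, with medians of -0.62 in shDCBLD2, -0.11 in the overexpression-labelled library and 0.08 between the controls. CNTNAP2, which had 15, 0, 2 and 72 counts, met the filter only through the overexpression-labelled library. With it at a floor of 3 counts in shDCBLD2 the first median was the same, and without it the medians were -0.46, -0.14 and 0.23. CNTNAP3, at -1.04, was the other gene past 2-fold in shDCBLD2, where 5.62% of tested genes were past it downward. In the overexpression-labelled library F8 was past 2-fold downward, at -1.27 (-1.84 to -0.79), and CNTNAP2, which had to be higher there, upward. Of all tested genes 5.35% were past 2-fold downward and 6.42% upward. MFGE8, a secreted protein that binds integrins and phosphatidylserine, was past 2-fold between the controls alone, at 1.09 (1.02 to 1.15). Upward, 2.22% of tested genes were past 2-fold there. CNTNAP2 was past 2-fold downward between the controls, at -2.03 (-5.99 to -0.71), as were 1.89% of tested genes. Of 4 other LCCL domain genes 2 were past the filter, and CRISPLD2 had log2 ratios of 0.86 (0.58 to 1.15) and -1.89 (-2.67 to -1.31).

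Of 6 other CUB domain receptors, 5 were past the filter, with medians of 0.25, 0.13 and 0.10 in the 3 comparisons. NETO2, an accessory subunit of kainate receptors, was counted 1654 times in sc, 3020 times in shDCBLD2, 1426 times for the empty vector and 621 times in the overexpression-labelled library. Its log2 ratios of 0.73 (0.64 to 0.82), -1.04 (-1.18 to -0.91) and -0.12 (-0.23 to -0.02) had the same signs as those of NRP2 in all 3 comparisons.

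The shape of each gene's profile over the 4 libraries was compared with that of every gene of at least 10 CPM by the root mean square difference of centred log2 CPM. DCBLD2 lay nearest to ARHGAP18, which makes a GTPase-activating protein, at 0.0924 against a median of 0.633 over all genes compared. ARHGAP18 had 21.8 CPM in sc, 9.13 in shDCBLD2, 17.4 for the empty vector and 11.3 in the overexpression-labelled library. PLCH1 (0.158), PPFIBP2 (0.187), SUSD2 (0.196) and DCDC2 (0.201) came next. None was as near to DCBLD2 as the nearest genes were to DCBLD1 (FAM101B, 0.0167), NRP1 (ZNF236, 0.0101) and NRP2 (TRA2A, 0.0181).

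The nearest to DCBLD1 included BUD31 and RBMX, which act in splicing, beside FAM98B and FBXO25. Those to NRP1 included FBXO3, STAMBP, SMARCA2 and CASC4, and those to NRP2 included UNKL, RINT1 and CEP89. ST3GAL6 lay nearest to BMP6 (0.054), a growth factor gene, then MARCKSL1, OLFM2, GTPBP3 and NRGN. The profile of ST3GAL6 rests on 15 to 37 counts per library, so counting error limits this order. Its high value in the overexpression-labelled library was fixed by the filter. All nearest genes were picked by their match to a profile, so a shared shape was fixed in advance. With 4 libraries these are descriptions of shape, and libraries share depth and scaling across all genes. DCBLD1, NRP1 and NRP2 lay nearer to each other, at 0.187 to 0.206, than DCBLD2 did to any of them, at 0.548 to 0.722. Their median distances to all genes compared were smaller too, at 0.334, 0.331 and 0.394, and the distances of DCBLD2 to its relatives were near its own median of 0.633.

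**Figure D5:**
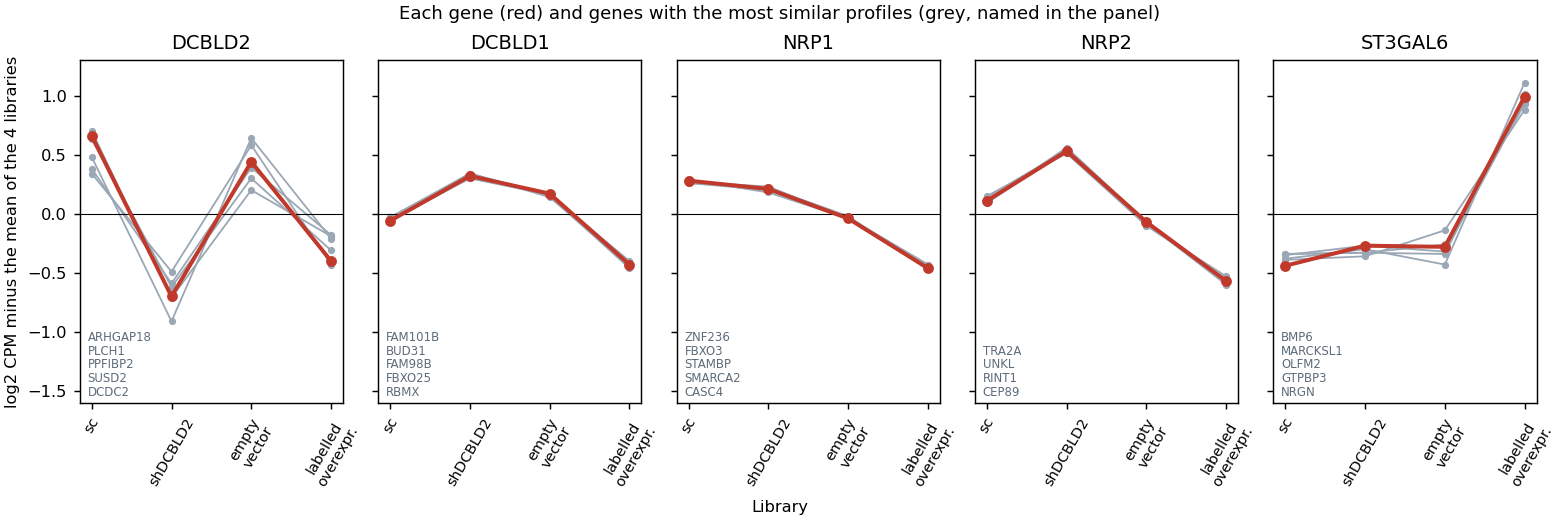
Centred log2 CPM over the 4 libraries for each of the 5 genes and the genes whose profiles lay nearest to it (5 each, 4 for NRP2), 1 panel per gene, with lines that join libraries in no order. DCBLD2 and its nearest genes are high in sc and low in shDCBLD2. ST3GAL6 and its nearest genes are high only in the overexpression-labelled library among the 4. ST3GAL6 met the filter only through that library and so had to be higher there. The nearest genes were picked by their match to each profile, so the shared shape was fixed in advance.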

How the data were processed

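RNA was sequenced from poly(A) libraries of A549 cells, 1 per condition. Raw read counts of each gene were deposited by the authors, with FPKM values that they made from the counts and the exonic gene size. The aligner, counting program and strand setting are not given in the sources used here. The labels name the build mm9, a mouse genome, while the gene identifiers are human, so deposited coordinates were used as they stand.

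The 5 genes, the lists and the tests were chosen with earlier results of these data known. Scaling used TMM (edgeR 4.0.16, R 4.3.3) or, as an alternative, the size factors of DESeq2 1.42.0. Log2 ratios used a prior count of 2 and an exact Clopper-Pearson 95% interval. Genes past 2-fold had a ratio of 2 or more, in either direction, and an interval without 0 on the log2 scale. Depth, from 16601633 to 21537283 counts, sets these intervals. For the 246 symbols on several entries, the most counted entry was taken. The steps were tested on simulated data, with Python 3.11.15, pandas 2.3.3, numpy 2.4.6, matplotlib 3.10.9 and scipy 1.17.1. Genes named were the 5 genes, list members past 2-fold in any comparison or of highest level, neighbours within 1 Mb past the filter, and the 5 nearest profiles, of which 1 is not reported here. Gene models are from GENCODE 29 and promoter sequences from RefSeq on GRCh38.p14, which held 4 of the 5 genes. Proteins were not compared here. Alternatives were other scalings, prior counts of 0.5 and 5, the other control, counts drawn down to the smallest total, other filters and a 1.5-fold threshold.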

Additional observations from a re-analysis of the deposited data

How the results depend on the processing

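No paired analysis was possible because each condition had 1 library. With the same control, 0 of 93 recomputed log2 ratios of the 5 genes took the other sign, and the largest shift was 0.166, for ST3GAL6 in the library labelled DCBLD2 overexpression with counts drawn down. With the other control, 1 of 10 took the other sign. For shDCBLD2 against the empty vector, the log2 ratio of NRP1 turned to 0.256, and those of DCBLD2, DCBLD1 and NRP2 moved to -1.136, 0.147 and 0.599. For the library labelled DCBLD2 overexpression against sc, DCBLD2, DCBLD1, NRP1 and NRP2 moved to -1.056, -0.374, -0.739 and -0.676. The first of these passed 2-fold, which DCBLD2 did not against the empty vector. Against the empty vector, upper-quartile scaling moved DCBLD2, NRP1 and NRP2 in that library to -0.718, -0.293 and -0.37, and library totals moved DCBLD2 and NRP1 between the controls to -0.277 and -0.386. The cause was not tested. With the exonic sizes of GENCODE 29, an alternative chosen after the values were seen, DCBLD2 per NRP2 in shDCBLD2 turned to 1.16.

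Counts of genes past the fold moved with the filter and the threshold by construction. With no filter, a mean of at least 5 CPM and a 1.5-fold threshold, in that order, shDCBLD2 against sc had 417, 60 and 689 genes higher and 1272, 337 and 1618 lower. The library labelled DCBLD2 overexpression had 1873, 339 and 1789 higher. It had 493 lower at 5 CPM, 2484 lower at 1.5-fold and 483 lower under upper-quartile scaling. The controls had 594, 96 and 987 higher and 524, 84 and 932 lower. Depth limits ST3GAL6 most, with 15 to 37 counts per library, and no replicate measures the spread between cultures.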
